A study of Gallus gallus with 12 samples.

Results

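Transcript levels of embryonic red blood cells were compared with those of primary fibroblasts in the chicken, across every gene listed for either cell type. The members were the 13483 genes found in the deposited table of embryonic red blood cells, in that of fibroblasts, or in both, of 13889 genes in the whole series. Of these, 1322 were listed in both tables, 12129 only for fibroblasts and 32 only for embryonic red blood cells. The embryonic group held 3 samples of wild-type (WT) primary red blood cells taken at embryonic day 10. The fibroblast group held 3 samples of WT primary fibroblasts, grown in DMEM with fetal bovine and chicken serum. Values of the other WT groups stand beside them, namely 3 samples of HD3 erythroblasts, a cell line kept in the same medium, and 3 of primary red blood cells of adult hens aged 28 to 38 weeks. Whether replicates came from separate embryos or cultures is not given, so p-values measure only the spread between these samples, which may be technical. Total RNA was depleted of ribosomal RNA and sequenced with strand information. The title of the series places the data in a study of polymerase pausing and chromatin in erythrocytes, and fibroblasts stand there for a cell type outside the red cell lineage.

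Avian red blood cells stay nucleated, unlike those of mammals, but condense their chromatin and shut down much of their transcription as they mature. They fill with hemoglobin, built from globin chains and heme, and the embryo makes sets of globins that differ from those of the adult. Fibroblasts are dividing cells of connective tissue that make collagens and other matrix proteins. The files give genes as Ensembl IDs without names, and 0 of 25635 genes in the RefSeq table at hand carry an Ensembl ID. Globin, heme, matrix and other gene groups were therefore not used here, the labelled cell types were not checked against their defining markers, and IDs are printed for 2 higher and 2 lower genes.

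Levels are FPKM, the fragments counted on a gene after correction for its length and for the size of the library. The authors scaled them to cell number, and they are called scaled FPKM here. A table lists a gene when its mean is 0.3 or more, so a gene missing from a table was below 0.3 and was not measured as 0. Whole reads, recovered from the steps between values, numbered 6454399, 17808129 and 16131108 on the listed genes of embryonic replicates 1 to 3. They numbered 8853376, 23384692 and 18979165 in fibroblasts. If the 3 embryonic replicates share 1 factor, the scaling multiplied their FPKM by at least 0.0111. With each unlisted gene put at the cutoff the factor came to 0.0205, which is an estimate and no limit. The cutoff of 0.3 stands for an unscaled FPKM of 27.1 in embryonic cells at the lower bound of the factor and of 14.7 at the estimate, and unlisted genes can lie anywhere below it. In these bulk samples fewer cells of a type and less RNA per cell cannot be told apart.

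Across the genes in both tables, Spearman's rho was 0.757 to 0.951 between embryonic replicates and 0.924 to 0.975 between fibroblast replicates. Between a sample of one cell type and a sample of the other it was 0.224 to 0.332. These values run across genes, which are not independent replicates, and they describe the libraries. The lowest embryonic values were those of replicate 1 against the other two. No pair of replicates agreed within counting noise, as the mean squared difference per gene was 22.9 to 741 times what counting alone would give.

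Nearly all genes in both tables were lower in embryonic red blood cells. Of the 1322, 1304 had a mean of at least 1 over the 6 samples and were tested. By limma on log2(FPKM + 1), 1275 of them (97.8%) changed, meaning a Benjamini-Hochberg adjusted p under 0.05 and a log2 fold change of 1 or more in either direction. Of these 12 were higher (0.92%) and 1263 lower (96.9%) in embryonic cells. The median log2 fold change was -4.38, with quartiles at -5.36 and -3.47. This scale understates the change of low genes, and the plain ratio of the group means over the 1322 genes had a median of -5.85 on the log2 scale, a level 57.8-fold lower. By that ratio 1179 genes (89.2%) were at least 10-fold lower, 383 (29.0%) at least 100-fold and 10 at least 1000-fold lower. The replicates of the groups did not overlap for 1284 of the 1304 genes (98.5%).

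The size of that shift over the 1322 genes rests on the scaling to cell number. Divided by the lower bound of the factor, their median log2 ratio was 0.64, and divided by the estimate it was -0.24. Both medians cover only genes that reached the embryonic cutoff. They leave out the 12129 fibroblast genes below it, and so do not describe all fibroblast genes. The split of changed genes moved with the scaling. Each sample centred on its median gene gave 613 changed genes (47.0%), of which 320 were higher (24.5%) and 293 lower (22.5%). Equal sums gave 933 (71.5%), with 103 higher (7.9%) and 830 lower (63.7%). Limma voom on recovered reads, with library sizes summed over the genes in both tables, gave 872 (66.9%), with 156 higher (12%) and 716 lower (54.9%). Division by the lower bound of the factor gave 505 higher and 143 lower genes, and division by the estimate 267 and 377. One factor shared by the replicates leaves the order of the genes by ratio as it is.

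**Figure D1:**
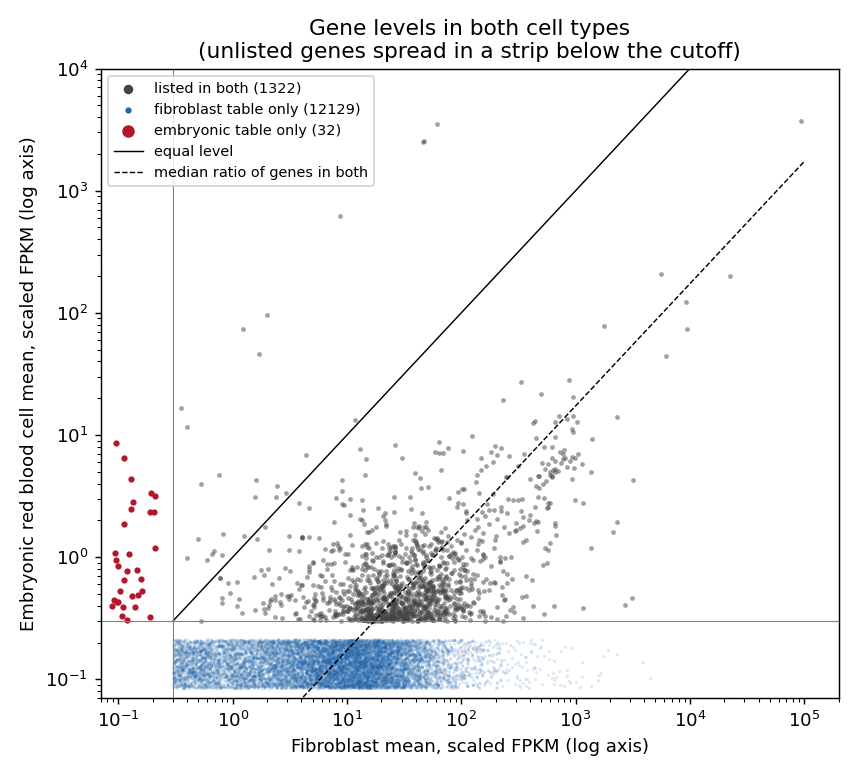
Mean scaled FPKM of each gene in fibroblasts (x, log axis) and embryonic red blood cells (y, log axis), with n = 3 per group. The 1322 genes in both tables lie mostly under the line of equal level and around the dashed line of their median ratio, and the 12129 and 32 genes of a single table are spread at random in strips under the cutoff of 0.3, where their height or position has no meaning.

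The 12 higher genes ran from log2 fold changes of 6.01 down to 1.06, the last of them close to the highest gene that was not called, at 0.76. The largest log2 fold change was that of ENSGALG00000028273, with a recovered length of 576 bp. Its scaled FPKM was 785, 526 and 562 in embryonic replicates 1 to 3 and 10.3, 7.88 and 7.61 in fibroblasts. The 3 embryonic samples thus lay far above the 3 fibroblast samples, whose values rested on 54, 109 and 85 reads. The means were 624 ± 140 (SD, n = 3) and 8.61 ± 1.501 (SD, n = 3), which gave a log2 fold change of 6.01 (SE 0.290, limma adjusted p = 9.34e-08). Measured from the median gene, its log2 fold change was 10.49. This too is on log2(FPKM + 1), which understates the change of low genes. ENSGALG00000028273 was at 1.83 ± 0.137 (SD, n = 3) in the HD3 erythroblast line, a cultured precursor of the lineage, and was not listed in adult red blood cells.

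ENSGALG00000043234, with a recovered length of 597 bp, had the second largest change. Its scaled FPKM was 4222, 2960 and 3291 in embryonic replicates 1 to 3 and 68.9, 57.5 and 56.1 in fibroblasts. The groups again did not overlap, and replicate 1 was the highest within each. The means were 3491 ± 655 (SD, n = 3) and 60.8 ± 7.004 (SD, n = 3), which gave a log2 fold change of 5.81 (SE 0.333, limma adjusted p = 2.77e-07). From the median gene it was 10.29 on the same scale. ENSGALG00000043234 took 22.8%, 17.2% and 19.1% of the reads on listed genes in the embryonic libraries and 0.00421%, 0.00353% and 0.00342% in the fibroblast libraries.

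The next genes by log2 fold change, at ranks 3 and 4, were nearly as abundant. The third, of 745 bp, was at 2613, 2364 and 2649 in embryonic cells and at 58.0, 43.5 and 40.9 in fibroblasts. The fourth, of 546 bp, was at 2167, 2804 and 2488 in embryonic cells and at 58.6, 41.8 and 39.5 in fibroblasts. All 6 embryonic values lay far above all 6 fibroblast values. The 4 genes with the largest increase together held 53.9% ± 1.53 (SD, n = 3) of all listed reads in embryonic red blood cells and 0.0105% ± 0.00181 (SD, n = 3) in fibroblasts. These shares are free of the cell-number factor, but the lists they are taken over differ in length.

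The fifth and sixth genes, of 540 and 536 bp, were less abundant but had similar ratios. The fifth had a mean of 96.9 ± 16.9 (SD, n = 3) in embryonic cells and 2.01 ± 0.811 (SD, n = 3) in fibroblasts, and was listed in neither HD3 erythroblasts nor adult red blood cells. The sixth had 73.5 ± 15.2 (SD, n = 3) in embryonic cells and 1.23 ± 0.216 (SD, n = 3) in fibroblasts. The eighth, of 669 bp, had 16.6 ± 0.688 (SD, n = 3) and 0.351 ± 0.128 (SD, n = 3), the latter on 3 to 4 reads per library.

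Those 7 genes, which had the highest ratios of means, differed in abundance far more than in ratio. Their embryonic means ran from 16.6 to 3491, a 210-fold range. Their ratio of embryonic to fibroblast mean ran only from 47.3 to 72.5, a 1.53-fold range, and their order of abundance was the same in both cell types. The next ratio down was 29.1. Fibroblast replicate 1 had the highest fibroblast value for 7 of these 7 genes and for 10 of all 12 higher genes. The share over all genes tested is not given here, so neither count shows a trait of these genes. Recovered lengths of the 7 lay between 536 and 745 bp, against a median of 2146 bp for all genes tested. This set was picked after its values were seen, and its pattern is a description with no test. The source of the fibroblast reads on these genes was not tested.

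The other 5 higher genes had smaller ratios. The seventh by log2 fold change, of 1000 bp, was at 45.8 ± 15.04 (SD, n = 3) in embryonic cells and 1.71 ± 0.248 (SD, n = 3) in fibroblasts. The ninth, of 1961 bp, was at 11.5 ± 2.95 (SD, n = 3) and 0.396 ± 0.0690 (SD, n = 3), and it was higher still in HD3 erythroblasts at 67.5 ± 13.3 (SD, n = 3). The tenth, of 1065 bp, was at 4.74 ± 0.907 (SD, n = 3) in embryonic cells, 0.764 ± 0.445 (SD, n = 3) in fibroblasts and, highest, 23.7 ± 4.32 (SD, n = 3) in erythroblasts. Both orders with erythroblasts are on scaled FPKM, where each cell type carries its own cell-number factor. If replicates share 1 factor, it was at least 0.171 in erythroblasts and at least 0.0111 in embryonic cells. The part of the scaling in these orders was not tested.

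The eleventh, of 2057 bp, was listed in both kinds of red blood cells and not in erythroblasts, with 4.004 ± 0.872 (SD, n = 3) at the embryonic stage. Its adult mean was 2.52 ± 0.980 (SD, n = 3), and its fibroblast mean was 0.529 ± 0.195 (SD, n = 3). The twelfth, of 2629 bp, was the weakest, at 4.29 ± 1.13 (SD, n = 3) against 1.59 ± 0.837 (SD, n = 3), which gave a log2 fold change of 1.06 (SE 0.278, limma adjusted p = 0.00562). Of the 12 higher genes 10 were also listed in erythroblasts, against 98.9% of all genes tested. In 7 of those 10 every embryonic replicate lay above every erythroblast replicate, and in 2 the reverse held. Of the 12, 7 were listed in adult red blood cells, against 35.3% of all genes tested. In 6 of these 7 every embryonic replicate lay above every adult replicate. Shares of such orders over all genes tested are not given here, and the 12 were picked for embryonic values above those of fibroblasts. These orders are on scaled FPKM, where each cell type carries its own cell-number factor.

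**Figure D2:**
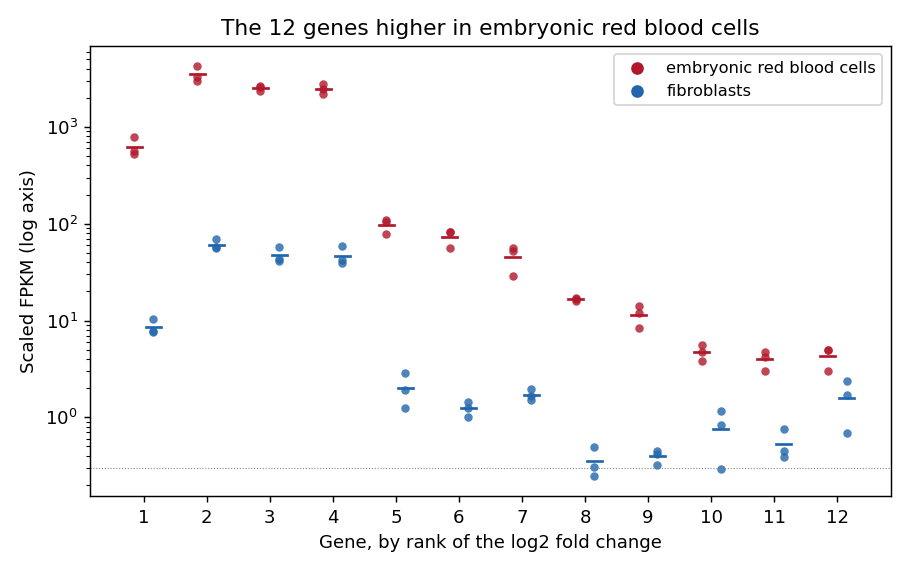
Scaled FPKM (y, log axis) of the 12 genes higher in embryonic red blood cells, ordered by log2 fold change (x), with a point per replicate, a bar at each mean and the cutoff of 0.3 dotted. The groups did not overlap for any of the 12, and the gap between them is similar for genes 1 to 6 and 8, although their levels differ up to 210-fold.

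Among genes tested in both tables, the 2 with the lowest log2 fold change were abundant in fibroblasts. ENSGALG00000026383, with a recovered length of 733 bp, had a scaled FPKM of 2307, 4853 and 2181.7 in fibroblast replicates 1 to 3 and of 0.440, 0.593 and 0.364 in embryonic cells. The groups lay far apart, and replicate 2 was the highest within both groups. The means were 3114 ± 1507 (SD, n = 3) and 0.466 ± 0.117 (SD, n = 3), which gave a log2 fold change of -10.95 (SE 0.360, limma adjusted p = 1.21e-08). Relative to the median gene, ENSGALG00000026383 was lower by a log2 fold change of -6.48 on the log2(FPKM + 1) scale. It stood at 0.340 ± 0.170 (SD, n = 3) in HD3 erythroblasts and at 1.64 ± 0.498 (SD, n = 3) in adult red blood cells.

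ENSGALG00000009621, with a recovered length of 1928 bp, was at 2324, 2445 and 3334 in fibroblast replicates 1 to 3 and at 0.386, 0.436 and 0.397 in embryonic cells. Its embryonic values lay close together, while fibroblast replicate 3 stood above the other two. The means were 2701 ± 551 (SD, n = 3) and 0.406 ± 0.0262 (SD, n = 3), which gave a log2 fold change of -10.89 (SE 0.260, limma adjusted p = 9.33e-09). ENSGALG00000009621 was at 14.9 ± 11.9 (SD, n = 3) in erythroblasts and at 1.78 ± 0.655 (SD, n = 3) in adult red blood cells.

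Over the 12 genes with the lowest values among those tested in both tables, log2 fold changes ran from -10.95 to -8.23. Their fibroblast means lay between 422 and 3162 and their embryonic means between 0.343 and 4.27, on at least 17 reads in each embryonic library. In 11 of the 12 the erythroblast replicates lay between both groups without overlap. The same order was common among all lower genes. Of 1253 lower genes that erythroblasts also list, 1176 (93.9%) had an erythroblast mean between the fibroblast and the embryonic mean, and 1037 were ordered that way in every replicate. In 66 the erythroblast mean was above that of fibroblasts, and in 11 it was at or below that of embryonic cells. The erythroblast values carry a cell-number factor of their own. If the replicates of a type share 1 factor, it was at least 0.171 in erythroblasts and at least 0.0111 in embryonic cells. That of fibroblasts was taken as 1. The part of the scaling in this order was not tested.

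A small set of 29 tested genes was not called. Their log2 fold changes ran from -1.08 to 0.76, against a median of -4.38 over all genes tested. In 11 of them the limma adjusted p was under 0.05 with a change smaller than a log2 of 1, and in 18 it was not. The log2 fold change was positive, meaning higher in embryonic cells, for 9 and negative for 20. A p-value over the threshold does not show that their levels were equal.

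By number, most genes listed for fibroblasts were below the cutoff in embryonic red blood cells. Of 13451 genes listed for fibroblasts, 12129 (90.2%) were missing from the embryonic list. Their median fibroblast level was 7.67, against 33.5 for the genes in both tables. Since their embryonic mean was below 0.3, a lower bound of each decrease follows from the fibroblast mean divided by 0.3. By this bound 8540 of the 12129 genes (70.4%) were at least 10-fold lower, 1675 (13.8%) at least 100-fold and 72 at least 1000-fold lower, with a median bound of 25.6-fold. The bounds are on the per-cell scale and carry no test.

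The most abundant of the genes listed only for fibroblasts, of 9525 bp, was at 5329, 1624 and 6554 in fibroblast replicates 1 to 3. Replicate 2 was well below the other two. The mean of 4502 ± 2567 (SD, n = 3) puts it at least 15007-fold lower in embryonic cells. It was listed in erythroblasts at 1.24 and in adult red blood cells at 0.509 on average. Of the 12129 genes, 8594 (70.9%) were listed in HD3 erythroblasts and 303 (2.50%) in adult red blood cells. Of the 13889 genes in the series, erythroblasts list 10303 and adult red blood cells 804. If replicates share 1 factor, it was at least 0.171 in erythroblasts and at least 0.00253 in adult cells. The cutoff of 0.3 can thus stand for a much higher unscaled FPKM in adult cells, and unlisted genes were not measured as 0.

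Listing in embryonic cells depended on the fibroblast level. Of 1749 genes with a fibroblast level from 0.3 up to 1, 1.03% were also listed in embryonic red blood cells. The share was 3.51% of 3479 genes from 3 up to 10, 25.3% of 1826 genes from 30 up to 100, and 60.1% of 148 genes from 300 up to 1000. Of the 34 genes at 1000 and over, 61.8% were listed, or 21 genes, and the others were below the embryonic cutoff.

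**Figure D3:**
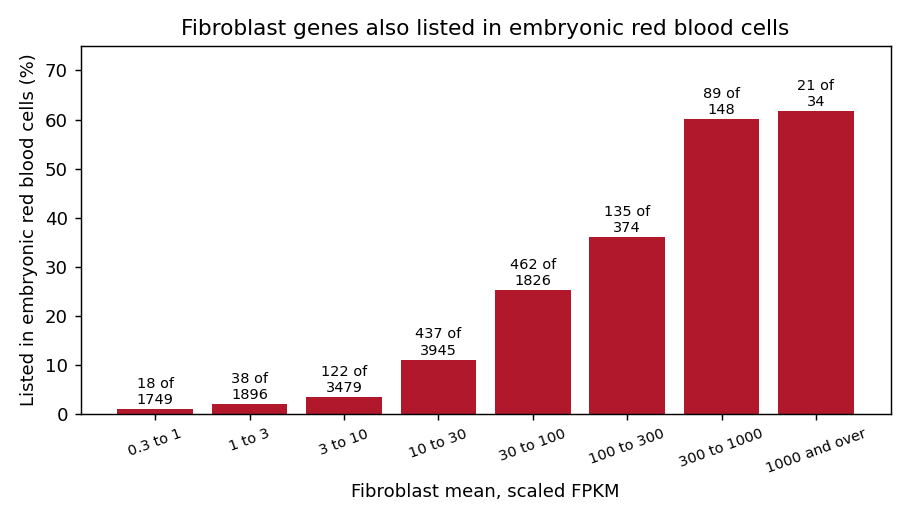
Share of fibroblast genes that the embryonic table also lists (y, percent) by mean fibroblast level in scaled FPKM (x), with the numbers of genes above each bar. The share climbs from 1.03% in the lowest class to 61.8% of the 34 genes in the highest.

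The cutoff also bounds what can be seen relative to the median gene. By the plain ratio of means, a gene listed in embryonic cells with a fibroblast level under 17.3 lies above the median of -5.85 by construction. Of the 320 genes called higher relative to the median gene, 288 were under that level, and of the 293 called lower, none was. At or over that level 952 genes were tested, of which 3.36% were higher and 30.8% lower. The calls were made on log2(FPKM + 1), however, where the cutoff acts up to a higher fibroblast level than 17.3. It thus still limits which genes at or over 17.3 could be called lower, and these shares are not free of it. The 293 genes lower than the median had a median fibroblast level of 161 and a median embryonic level of 0.729. In erythroblasts their median log2 ratio to fibroblasts was -2.18, against -1.91 over all genes tested. That ratio uses the same fibroblast values by which the 293 genes were picked, so it is no independent comparison.

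Only 32 genes were listed in embryonic red blood cells and not in fibroblasts. Fibroblasts thus also listed 97.6% of the 1354 embryonic genes. The cutoff of 0.3 stands for a higher unscaled FPKM in embryonic cells than in fibroblasts. Its part in this small number was not tested. The 32 were mostly low, with a median of 0.778, and 13 of them had a mean of at least 1. The most abundant, of 2556 bp, was at 5.98, 10.9 and 9.11 in embryonic replicates 1 to 3, with replicate 1 the lowest. Its mean of 8.67 ± 2.51 (SD, n = 3) was at least 28.9-fold that of fibroblasts. It was not listed in erythroblasts, and the adult mean was 0.307 ± 0.271 (SD, n = 3).

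The second, of 2307 bp, was at 6.53 ± 2.43 (SD, n = 3), at least 21.8-fold the fibroblast level, and at 1.36 ± 1.49 (SD, n = 3) in erythroblasts. The third, of 2340 bp, was at 4.34 ± 1.00 (SD, n = 3) in embryonic cells and, higher on the scaled FPKM, at 18.7 ± 10.3 (SD, n = 3) in erythroblasts. The part of the unlike cell-number factors in that order was not tested. Of the 32 genes, 13 were listed in erythroblasts, 16 in adult red blood cells, 6 in both and 9 in neither. Over the 1304 genes tested in both tables, 98.9% were listed in erythroblasts and 35.3% in adult red blood cells. The 32 genes were not matched to those for level, and the part of level in these shares was not tested.

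**Figure D4:**
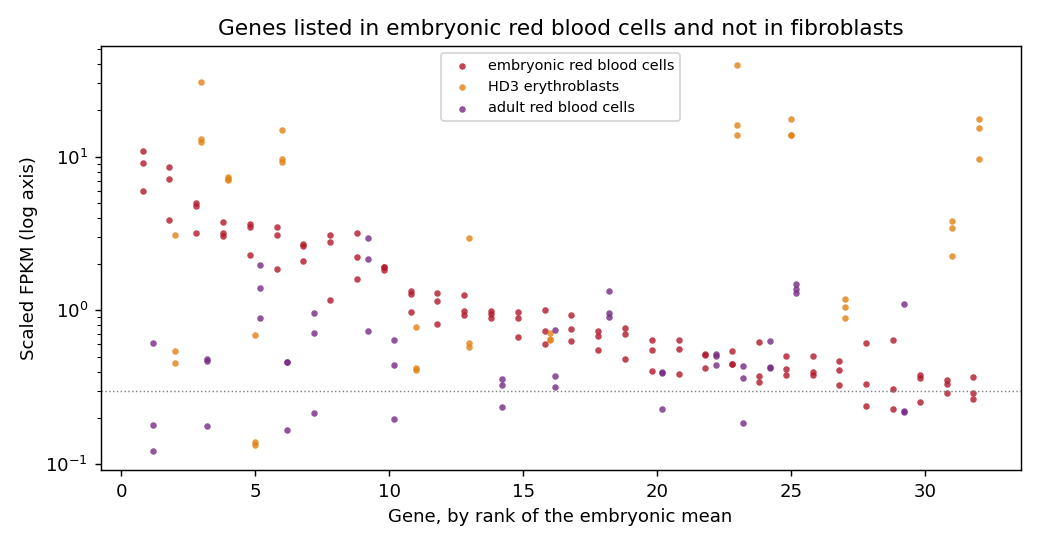
Scaled FPKM (y, log axis) of the 32 genes listed in embryonic red blood cells and not in fibroblasts, ordered by embryonic mean (x), with a point per replicate and the cutoff of 0.3 dotted. Points of HD3 erythroblasts and adult red blood cells are drawn where those tables list the gene, which is the case for 13 and 16 of the 32.

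The signal of embryonic red blood cells was concentrated in few genes. Over the 1322 genes in both tables, the 10 highest genes of a sample held 90.5%, 86.1% and 86.7% of the summed scaled FPKM in embryonic replicates 1 to 3 and 55.8%, 53.4% and 60.3% in fibroblasts. The groups did not overlap. The means were 87.8% ± 2.38 (SD, n = 3) and 56.5% ± 3.52 (SD, n = 3), with a two-sided exact permutation p of 0.1, the smallest that 3 samples against 3 allow. Taken over recovered reads, which are not corrected for gene length, the share was 70.2% ± 6.79 (SD, n = 3) in embryonic cells and 31.2% ± 4.16 (SD, n = 3) in fibroblasts.

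A share of 50% of the sum was reached with 2, 3 and 3 genes in embryonic replicates 1 to 3 and with 5, 7 and 4 genes in fibroblasts. For 90% of the sum, 9, 39 and 33 genes were needed in embryonic cells and 356, 275 and 311 in fibroblasts. Embryonic replicate 1 was the most concentrated. The sum itself was 15457 ± 2520 (SD, n = 3) in embryonic cells and 281651 ± 41202 (SD, n = 3) in fibroblasts, 18.2-fold higher, while the median gene was 57.8-fold higher. The sum and the shares leave out genes of a single list, which held much of the fibroblast total. Over all listed genes the sums were 18409, 14075 and 14041 in embryonic replicates 1 to 3. They were 494482, 574473 and 507714 in fibroblasts. The number of the 1322 genes at or above 1 was 350 ± 59.4 (SD, n = 3) in embryonic cells and 1299 ± 6.03 (SD, n = 3) in fibroblasts. For the sum over the 1322 genes and for this number the groups did not overlap, at a two-sided exact permutation p of 0.1. That is also the adjusted p over the 3 measures tested. The sum and the number at or above 1 are on scaled FPKM, so the cell-number factor enters both. In embryonic cells the cutoff stands for an unscaled FPKM of 27.1 at the factor's lower bound and of 14.7 at its estimate. After division by either, every embryonic mean of the 1322 genes would thus lie above 1. Neither measure was recomputed that way, and the part of the scaling in both differences was not tested.

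**Figure D5:**
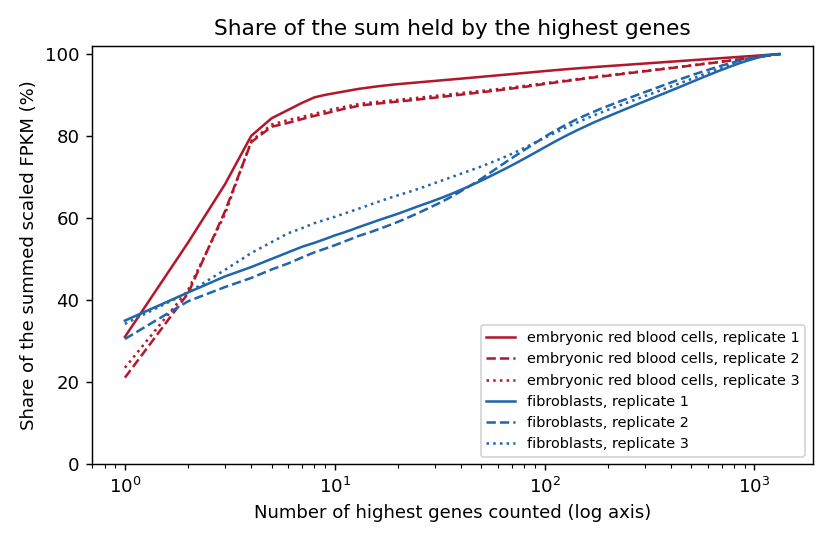
Cumulative share of the summed scaled FPKM over the 1322 genes in both tables (y, percent) against the number of highest genes counted in each sample (x, log axis), with a line per replicate. The embryonic lines climb steeply over the first few genes and reach 90% with 9, 39 and 33, whereas the fibroblast lines need 275 to 356.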

How the data were processed

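The members, lists and tests were chosen with earlier results of these data known. Per the submitters' processing notes, STAR 2.7.2b, featureCounts and the build GRCg6a were used, with roles and settings not given in the sources used here. The authors deposited 1 table of FPKM values per cell type, scaled to cell number according to the tables' names, with 3 replicate columns and their mean. How the scaling factor was obtained is not given in the sources used here. Columns were matched through the sample descriptions, and 0 were left unmatched.

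The test used limma (version 3.58.1, R 4.3.3, trended variance) on log2(FPKM + 1), over genes that both lists hold and whose mean over the 6 samples was 1 or more. P-values were adjusted over all of them. By rule, the 2 genes with the highest and the 2 with the lowest log2 fold change among changed genes without overlap were named by ID, and others appear by rank. Gene lists were not used, since no name was paired with an ID. Sample measures were compared with an exact permutation test in SciPy 1.17.1.

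Deposited FPKM move in steps of 1 read, whose height depends on the library and the gene length. Ratios between samples and genes gave constants, lengths and reads for 13889 genes, whole within 0.02. Each length was the shortest that made its reads whole, so their wholeness is part of the method and no separate check. A length that shares a divisor with all its reads comes out too short, so lengths are lower estimates. The 3 fibroblast library totals were multiplied by the smallest whole number that made all of them whole within 0.02. On that ground their factor was taken as 1. The lower bound of the embryonic factor is where listed reads make up the whole library. The fit was tested on simulated data. So was the recovery of lengths and reads, but with the library constants supplied, so the recovery of those constants was not tested.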

Additional observations from a re-analysis of the deposited data

How the results depend on the processing

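Of 181 values recomputed under alternatives, 158 kept their direction, call or size within the set limits. The other 23 moved further, and the median log2 fold change changed sign with centring and with division by the factor's lower bound. Alternatives run on the fit relative to the median gene were not planned in advance. The 4 genes named by ID kept direction and call in 67 of 67, which are part of the 158. They had been picked for the largest changes, so this says little about other genes. The order of the 2 lower ones was not kept throughout. With a pseudocount of 0.1, ENSGALG00000009621 was at -12.36 and ENSGALG00000026383 at -12.34. Leaving out single replicates gave 11 to 12 higher and 1255 to 1266 lower genes. The median log2 fold change of -4.38 was -5.62 with a pseudocount of 0.1 and -4.50 with a mean of at least 3. Centring on the median gene gave 320 higher and 293 lower genes and a median of 0.10, which removes the shift by construction. Equal sums gave 103 higher, 830 lower and a median of -1.50, and voom on recovered reads 156, 716 and -1.23. Division of the embryonic values by the factor's lower bound, added after seeing the data, gave 505 higher, 143 lower and a median of 0.57, and by its estimate 267, 377 and -0.28. With genes of either table at the limit of 0.3, which has no spread and so gives p-values that are too small, 22 were higher and 10633 lower with a median of -3.31. All 12 samples in 1 fit left only genes of all 4 tables, with 6 higher, 440 lower and a median of -4.59.

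With the replicate number as a block (replicate block), 12 genes were higher and 1265 lower. Deviations of same-numbered samples correlated at -0.256, 0.00343 and -0.119 across genes, and the labels tie no numbers together, so the numbers were not taken as pairs. The unstated cell-number factor and the cutoff limit every statement on level, while depth limits the fibroblast values of the higher genes, the smallest of which rest on 3 reads.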

Other observations

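Genes were also grouped by recovered length, with classes chosen after the lengths had been seen and no test. Over all 1304 genes tested, 24.5% were called higher and 22.5% lower relative to the median gene. Of the 55 tested genes under 150 bp, 15 (27.3%) were called higher, close to the share over all genes, and 3 (5.45%) lower. Their median log2 ratio of embryonic to fibroblast mean was -5.08. The largest share called lower was that of the 65 genes from 300 up to 600 bp. In that class 7 (10.8%) were called higher and 30 (46.2%) lower, with a median ratio of -6.48. Of the 182 genes from 600 up to 1200 bp, 24 (13.2%) were called higher and 75 (41.2%) lower, with a median ratio of -6.59. The classes from 150 up to 300 bp and from 1200 up to 5000 bp are not given here. Of the 105 genes of 5000 bp or more, 32 (30.5%) were called higher and 7 (6.67%) lower, with a median ratio of -5.46. Over the 1322 genes in both tables the median was -5.85. Fibroblast levels differ between these classes, and their part in the differences was not tested.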
